A study of Homo sapiens with 8 samples.

Results

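The transcript models of HepG2, a human line derived from hepatocellular carcinoma per the labels, were described in 3 libraries of native RNA. These are the 3 HepG2 libraries of a series of 8 that also covers other cell lines. The members were chosen by the label of the line alone, and no contrast between lines was made. HepG2 is an established line grown without a treatment named in the labels, and the labels do not say whether its libraries came from separate cultures. The spread between libraries given here may therefore be technical. The stated purpose of the series was a comparison of Oxford Nanopore direct RNA reads with PacBio reads by TALON, a program that assigns every long read to a transcript model. PacBio reads were not analysed here. Reads fell in 164025 of the 506946 models listed in the deposited HepG2 table, and in 14191 of its 20565 annotated genes.

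HepG2 cells keep much of the secretory programme of hepatocytes, the liver cells that make most plasma proteins, and they also make alpha-fetoprotein, which the fetal liver secretes. A gene gives several transcripts through the choice of start, splice sites and end, and a long read can show in 1 piece which exons an RNA molecule holds. In direct RNA sequencing the strand enters the pore from its poly(A) end, so a strand that is broken, or whose read stops early, is seen without its 5′ exons.

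TALON sorts models by their splice sites. A Known model has the intron chain of an annotated transcript. An incomplete splice match (ISM) holds a continuous part of such a chain, and its suffix subtype lacks exons at the 5′ end. A NIC model combines annotated splice sites in a way the annotation does not list, an NNC model holds at least 1 unannotated splice site, and a Genomic model, nearly always of 1 exon here, fits none of these within an annotated gene. Antisense and intergenic models lie outside annotated genes of their strand. Coordinates below are those of GENCODE release 29 on GRCh38 (hg38). A principal transcript is the one that GENCODE marks with the APPRIS principal label.

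The libraries held 461497, 248490 and 346196 reads in replicates 1, 2 and 3. A model at 0 reads in the line has an upper limit of 3 counts over the 3 libraries, 2.84 CPM, which stands for counts per 1000000 reads of the library. Chi-square per degree of freedom between pairs of libraries was 1.998 to 2.72 over models, so no library was a repeat of another within sampling noise. ALB, AFP and APOA1, which mark this line, summed to 46263 to 54150 CPM per library. Of 6 fibroblast and matrix markers none had a read, VIM, the intermediate filament gene, among them. Of 8 erythroid markers HBA1 alone had a read, 1 in all, of 6 T and NK cell markers CD3D alone, 2 in all, and of 4 endothelial markers VWF alone, 5 in all. The B cell list had reads in 3 of 8 genes and summed to 147 to 213 CPM, nearly all from CD74, the MHC class II invariant chain, while MS4A1, CD79B and HLA-DRA were at 0. The myeloid list had reads in 3 of 6 genes and summed to 1195 to 1459 CPM, nearly all from LYZ, which codes for lysozyme, at 1348 ± 150 CPM (SD, n = 3), while CSF1R and FCGR3A were at 0.

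Reads of HepG2 were concentrated in genes of plasma proteins, ribosomes and iron storage. The 25 genes of most reads held 20.3% ± 0.631 of all reads (SD, n = 3), and the first 100 held 37.6% ± 1.26. Of the 25, 8 coded for secreted plasma proteins, 2 for apolipoproteins and 8 for ribosomal proteins or the elongation factor EEF1A1. The other 7 were both ferritin subunits FTL and FTH1, AKR1C1, GAPDH, PGC, TPT1 and PEBP1. Ranks are ranks of reads, each read standing for 1 strand, so counts were not divided by length.

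ALB, which codes for albumin, the main carrier protein of plasma, lies on chromosome 4 at 73397114 to 73421412 on the plus strand. It had 28470.4, 27333 and 24596 CPM in replicates 1, 2 and 3, and was the first gene in every library. AFP, which codes for alpha-fetoprotein, lies downstream of it at 73431138 to 73456174 and had 14891, 13642 and 13074 CPM. The 2 genes of this family thus held ranks 1 and 3, with AFP below ALB in each library. SERPINA1, the alpha-1 antitrypsin gene on chromosome 14 at 94376747 to 94390693, minus strand, stood between them with 21467, 23635 and 21037 CPM.

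FTL, the ferritin light chain gene on chromosome 19, had 11586, 12246 and 15101 CPM, highest in replicate 3. AHSG, which codes for the plasma glycoprotein fetuin-A, had 10691, 10970.3 and 6762 CPM, and TF, the iron carrier transferrin, had 8949, 9147 and 6219 CPM. Both stood lower in replicate 3 than in the other two libraries. APOA1, the main protein of high-density lipoprotein, averaged 9362 ± 1237 CPM, A2M, a broad protease inhibitor, 9158 ± 784, and APOA2 7047 ± 757 (SD, n = 3 each). PGC, which codes for pepsinogen C, known as a stomach protease precursor, ranked 23rd with 3588, 3694 and 4719.9 CPM. Reads of FTL, FTH1, EEF1A1 and ribosomal protein genes can be split with processed pseudogenes of near-identical sequence, and those of AKR1C1 with AKR1C2, so their levels are uncertain.

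**Figure D1:**
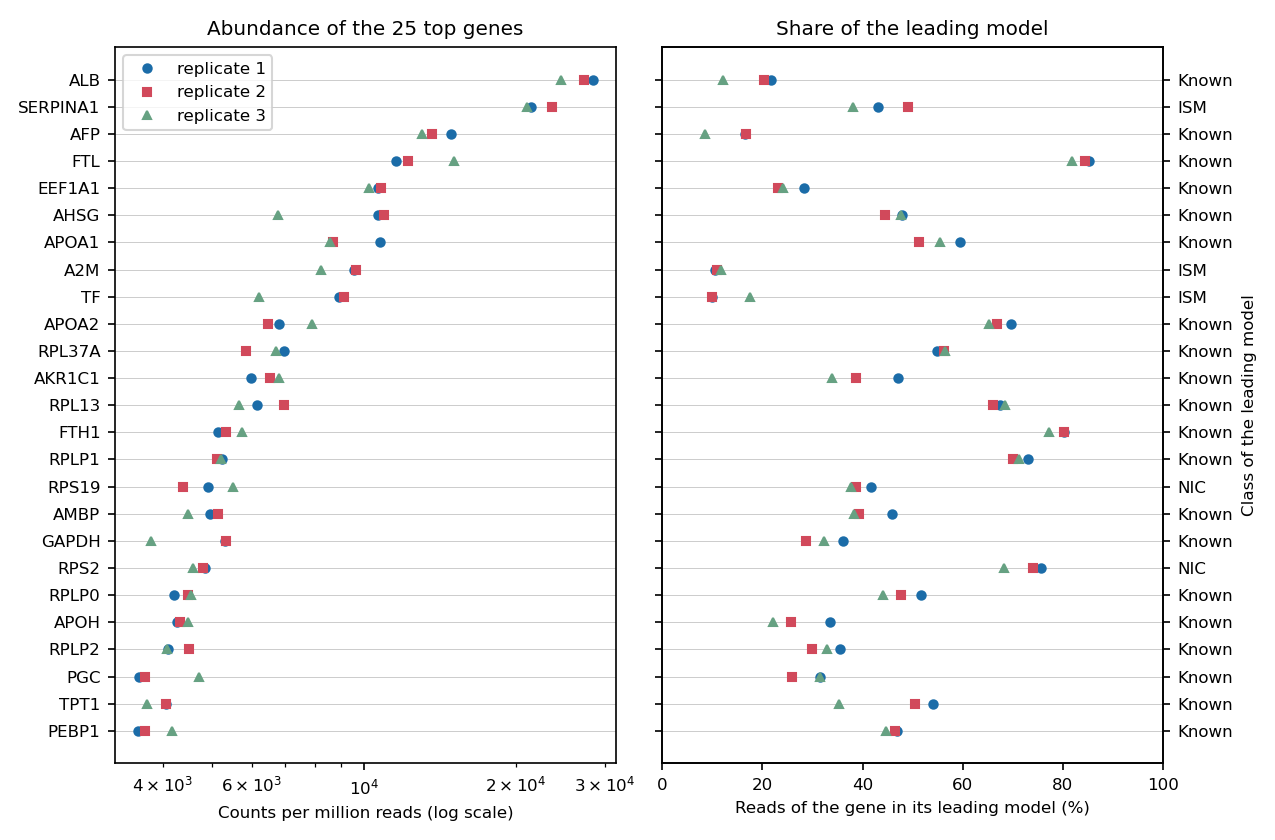
The 25 genes of most reads in HepG2, with abundance in CPM on a log axis (left) and the percentage of each gene's reads in its leading model (right); each point is 1 of 3 libraries and the right margin gives the class of the leading model. ALB leads in abundance at 24596 to 28470.4 CPM, but its leading model held no more than 21.8% of its reads in any library, while that of FTL held 81.8% to 85.3%.

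A minority of reads fell in Known models. Known models took 41.3%, 37.6% and 38.7% of reads in replicates 1, 2 and 3, a mean of 39.2% ± 1.91 (SD, n = 3). ISM models followed with 24.8%, 27.0% and 26.9%, a mean of 26.2% ± 1.26, and most of these reads, 21.7% ± 1.04 of all reads, were of the suffix subtype that lacks 5′ exons. The prefix subtype, which lacks 3′ exons, held 0.857% ± 0.0814. The known class was highest and the ISM class lowest in replicate 1.

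NIC models held 17.1% ± 0.186 of reads, Genomic models 11.8% ± 0.418 and NNC models 5.38% ± 0.485 (SD, n = 3). Of the Genomic reads nearly all were in models of 1 exon, 11.7% ± 0.403 of all reads. Unannotated antisense and intergenic genes together took less than 1 read in 100, at 0.371% ± 0.00758 and 0.424% ± 0.0214. The exact 95% binomial interval of a class share reached at most 0.191 percentage points to either side. Intervals and floors cover counting error only.

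A Known label did not always mean a full-length transcript. In 32.1% ± 1.04 of known reads (SD, n = 3) the model's intron chain was itself the 3′ part of a longer annotated transcript of the gene. Models that GENCODE types as retained intron held 8.10% ± 0.855 of known reads, protein-coding models 83.9% ± 1.45, and models typed as targets of nonsense-mediated decay 0.743% ± 0.0703.

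The leading model of a gene, the one with most reads summed over the libraries, was examined in the 4183 annotated genes with at least 30 reads in all and 5 in each library. These genes held 91.1% of reads. The leading model held a median of 31.25% of the gene's reads, with an interquartile range of 20.5% to 47.3%. It held at least 50% in 927 genes, at least 90% in 116 and less than 10% in 139. A Known model led in 2085 genes (49.8%), a Genomic model in 1088 (26.0%), an ISM model in 675 (16.1%), a NIC model in 281 (6.72%) and an NNC model in 54 (1.29%). In 208 genes the lead was tied, and ties were given to a Known model.

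The leader was the same in each of the 3 libraries in 2320 genes (55.5%). Here and below, a leader that was tied for most reads within a library counted as the same. Among the 275 genes with at least 500 reads it was the same in 217 (78.9%). Known leaders recurred in each library in 64.8% of their genes, Genomic leaders in 55.1%, NIC leaders in 39.5%, NNC leaders in 37.0% and ISM leaders in 35.4%. Depth differed between these classes, as Known leaders had a median of 96 reads per gene, NNC leaders 88, NIC leaders 83, ISM leaders 63 and Genomic leaders 57, and its part in the shares was not tested.

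Leaders of different classes differed in how much of the gene they covered. Among genes with a principal transcript, 81.8% of Known leaders had its exon number and 16.5% had fewer exons. Of the ISM leaders 99.5% had fewer exons, with a median of 2 exons and 870.0 bases where the median principal transcript was 2957 bases. Of the NIC leaders 38.5% had exactly 1 exon fewer than the principal transcript, against 8.96% of Known, 9.05% of ISM, 28.3% of NNC and 3.02% of Genomic leaders. NNC leaders kept the principal exon number in 50.9% of genes. Of the 675 ISM leaders, 464 were suffix models and 207 were models of 1 exon with no subtype.

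Outside the gene lists described next, abundant genes with an unannotated leader held it in most libraries. AGT, which codes for angiotensinogen, the liver-made precursor of angiotensin, was led by a suffix ISM model of 4 of 5 exons with 45.5%, 48.3% and 38.3% of its reads. SCD, the desaturase that makes monounsaturated fatty acids, was led by a Genomic model of 1535 bases, where the principal transcript has 5362. GPX4, a glutathione peroxidase that reduces lipid peroxides, had an NNC leader of 6 of 7 exons with 30.6%, 27.0% and 30.1%. DHRS2, a short-chain dehydrogenase, had an NNC leader with the 9 exons of its principal transcript at 18.9% ± 3.09 (SD, n = 3), and APRT, an enzyme of purine salvage, one with all 5 exons at 32.9%, 27.8% and 32.2%. Leaders that keep the principal exon number and change a splice site were thus found beside leaders with fewer exons.

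**Figure D2:**
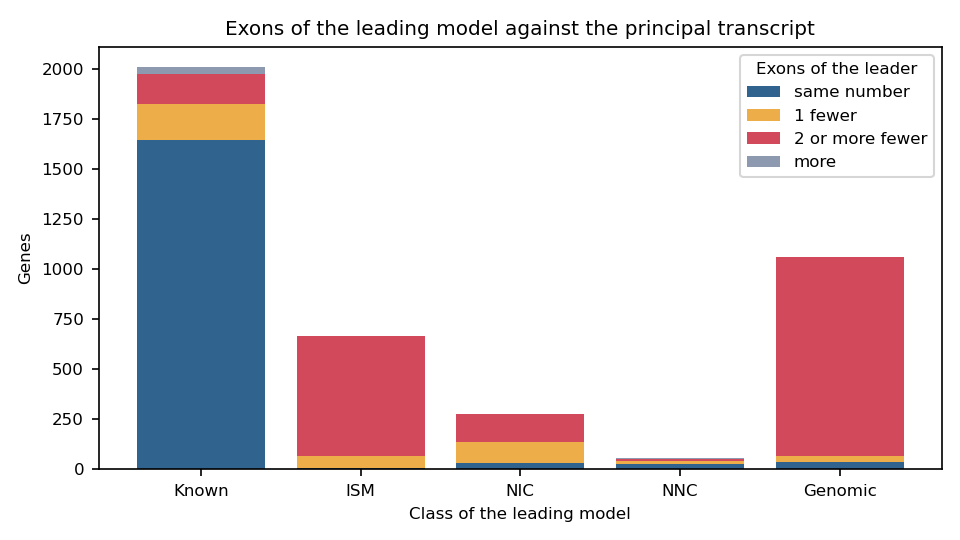
Number of genes (vertical axis) by class of the leading model (horizontal axis), divided by how the leader's exon number compares with the principal transcript of the gene, over 4060 genes with one. Of the Known leaders 1643 had the same number of exons, while 600 of the ISM and 994 of the Genomic leaders had at least 2 fewer.

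Classes changed with the annotated length of the principal transcript, which need not be the length of the RNA in these cells. RPL37-201, for example, has 7686 bases, while the leading model of RPL37 has 348. In the 167 genes with a principal transcript under 750 bases, the median gene had 72.9% of its reads in Known models and 0 in Genomic models. In the 876 genes at 4000 bases or over, the medians were 8.11% and 31.7%. Over the 3 bins between, the median Known share was 52.5% from 750 to under 1500 bases, 28.2% to under 2500 and 13.95% to under 4000. A Known model led in 80.8% of the shortest genes and in 23.97% of the longest.

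Summed over reads, the Known share was 66.1%, 62.3% and 63.3% in replicates 1, 2 and 3 for the shortest genes, and 26.9%, 25.05% and 25.01% for the longest, with no overlap between these bins. Reads in models with the exon number of the principal transcript made up 49.4% ± 2.49 of reads in the shortest genes and 16.3% ± 1.05 in the longest (SD, n = 3). Across the 4060 genes with a principal transcript, Spearman's rho between its length and the Known share was −0.55. It was 0.50 for the Genomic share, 0.21 for ISM, −0.08 for NIC and −0.03 for NNC. With the length of the most read Known transcript in place of the principal one, rho with the Known share was −0.42 over 3808 genes. These values describe genes read in the same libraries, and genes are not independent replicates.

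**Figure D3:**
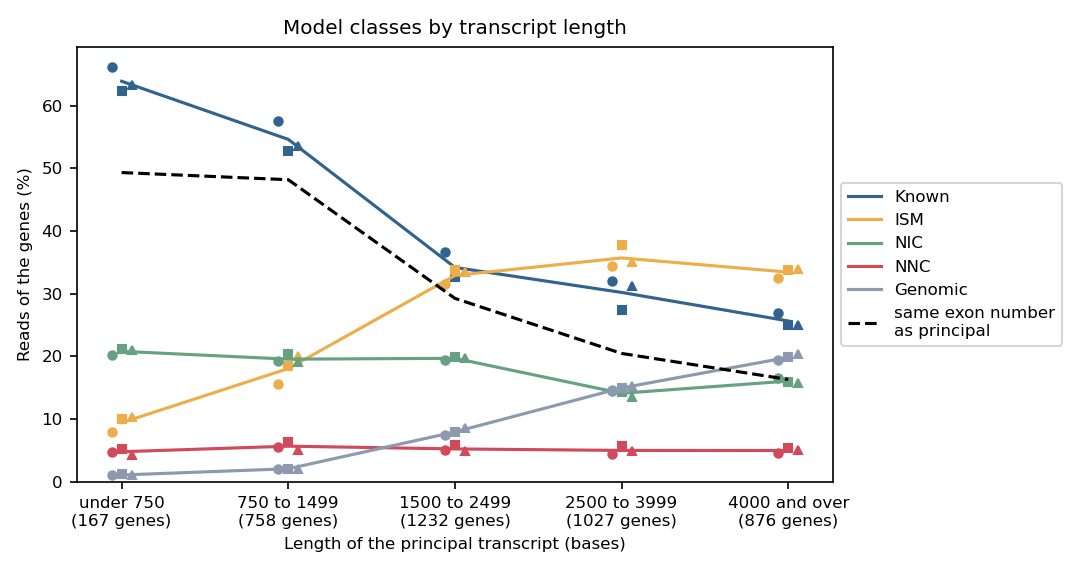
Percentage of reads in each model class (vertical axis) by the length of the gene's principal transcript in 5 bins (horizontal axis); lines are means of 3 libraries, with circles, squares and triangles for replicates 1, 2 and 3, and the dashed line gives reads in models with the exon number of the principal transcript. The Known share was 63.9% in the shortest genes and 25.7% in the longest, while the ISM share was 9.42% and 33.5% and the Genomic share 1.07% and 19.9%.

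Gene lists of this line's main functions differed in their classes. Of 26 secreted plasma proteins all had reads, and together they took 10.7% ± 0.857 of all reads (SD, n = 3). ISM models held 54.9% ± 2.27 of their reads and Known models 26.1% ± 2.67, against 26.2% and 39.2% over all reads. Of the 22 that passed the read minimum, 16 were led by a Known model, 5 by an ISM model and 1 by a NIC model.

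ALB-201, the principal transcript with 15 exons and 2263 bases, held 21.8%, 20.2% and 12.2% of ALB reads in replicates 1, 2 and 3. An ISM suffix model of 4 exons and 588 bases held 11.02%, 10.8% and 16.4%, and led in replicate 3. AFP followed the same order, with AFP-202, of 15 exons, at 16.6%, 16.7% and 8.59%, and a NIC model of 4 exons ahead of it in replicate 3 at 15.9%. In both genes the full-length transcript was lowest, and a short model highest, in replicate 3.

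SERPINA1 was led in each library by an ISM suffix model of 4 exons and 2385 bases, with 43.1%, 49.1% and 38.1% of its reads. Its best Known model, SERPINA1-202 of 5 exons, held 30.2%, 21.1% and 26.9%. A2M, whose principal transcript has 36 exons, was led by a 7-exon ISM model with 10.6%, 10.9% and 11.7%, and its Known models held 3.75% ± 1.20 (SD, n = 3). TF, with 17 exons, was led by a 2-exon ISM model at 10.02%, 9.99% and 17.6%. In replicate 2 a 10-exon ISM model of TF held more, at 11.6%. AHSG, a shorter gene of 7 exons, was led by its principal transcript AHSG-202 with 48.0%, 44.5% and 47.8%.

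Of 13 apolipoprotein genes 12 had reads, and Known models held 65.1% ± 2.56 of their reads. APOA1 was led by APOA1-204, of 3 exons, with 59.4%, 51.3% and 55.4%, while its principal transcript APOA1-201, of 4 exons, held 1.81%, 2.31% and 1.21%. APOA2 had the same form, with APOA2-202 of 3 exons at 67.2% ± 2.28 and APOA2-201 of 4 exons at 19.98% ± 1.66 (SD, n = 3 each). In both genes the leader's introns are the 3′ part of those of the longer transcript. A Genomic model of 489 bases held 21.2%, 25.9% and 23.8% of APOA1 reads. APOE, a carrier of triglyceride-rich lipoproteins, was led by an ISM model of 1 exon with 26.1%, 34.9% and 33.7%, and APOC1 by a NIC model of 3 exons with 54.3%, 52.9% and 51.8%. In replicate 1 APOE-201 held more of the APOE reads, at 32.6%.

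Of the 10 lists, complement and coagulation genes had the lowest share of reads in Known models. Of 24, 21 had reads and 14 passed, of which 5 were led by a Known, 6 by an ISM and 3 by a NIC model. Known models held 9.63% ± 0.851 of their reads and ISM models 53.2% ± 1.35 (SD, n = 3). C3, the central complement component, spread its 2366 reads over 602 models, and its leader C3-212, of 8 of the 41 exons of the principal transcript, held 5.57%, 4.88% and 5.598%. C3-212 had the most reads of the gene in only 1 of the 3 libraries. FGG, the fibrinogen gamma chain, was led by a 3-exon ISM model with 13.1%, 15.0% and 19.95%, and F2, prothrombin, by a 3-exon ISM model with 5.66%, 2.17% and 5.06%. Only 1 of the 14 genes that passed had the same leader in each library. The leaders of FGG and F2 therefore cannot both have led in every library.

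INSIG1 in the cholesterol list, and PFKM and LDHB among the glycolysis genes, are listed in the table at 0 reads in each library, so that each has an upper limit of 2.84 CPM over the line. LDHB codes for the lactate dehydrogenase subunit known from heart, and PFKM for the phosphofructokinase subunit known from muscle.

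Hepatocyte transcription factors were few in reads, 0.116% ± 0.0115 of all (SD, n = 3), and Genomic models held 46.6% ± 3.68 of those. CEBPA, an intronless factor of hepatocyte differentiation, had 87.1% of its reads in Genomic models and HNF4A, a nuclear receptor of liver identity, 71.6%. NR0B2, a short corepressor in bile acid feedback, differed from them, with NR0B2-201 at 90.2%, 91.7% and 87.2%. The 22 genes of cholesterol synthesis and its control, of which 21 had reads, were also high in Genomic models, at 28.8% ± 0.450, and 9 of the 20 that passed were led by one.

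Detoxification and redox genes had 44.4% ± 5.43 of reads in Known models and 17 of 18 leaders were Known. AKR1C1-202 of the aldo-keto reductase AKR1C1 held 47.1%, 38.7% and 33.9%, and PRDX1-202 of the peroxidase PRDX1 48.4%, 34.5% and 39.7%. Of the glycolysis genes 10 of 11 leaders were Known. GAPDH-201 of glyceraldehyde-3-phosphate dehydrogenase held 36.2%, 28.7% and 32.2%. ALDOA-209 of aldolase A held 69.8%, 67.1% and 74.3%, while PKM, pyruvate kinase, was led by an NNC model with 9.89%, 5.52% and 14.8%. In replicate 2 PKM-212 held more of the PKM reads, at 10.7%.

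Mitochondrially encoded mRNAs, which have no introns, had 79.4% ± 1.86 of reads in Known and 20.01% ± 1.78 in Genomic models (SD, n = 3). MT-CO3, a cytochrome oxidase subunit, had 98.8%, 98.1% and 99.6% in its annotated transcript, whereas MT-CO1, another subunit of the same enzyme, had 37.6%, 44.5% and 38.7% there. Of 19 long noncoding RNAs 14 had reads, and Known models held 50.3% ± 1.94. SNHG5-202 of the snoRNA host gene SNHG5 held 38.8%, 35.3% and 39.8%, and SNHG16 was led by a Genomic model with 19.05%, 26.7% and 23.3%.

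**Figure D4:**
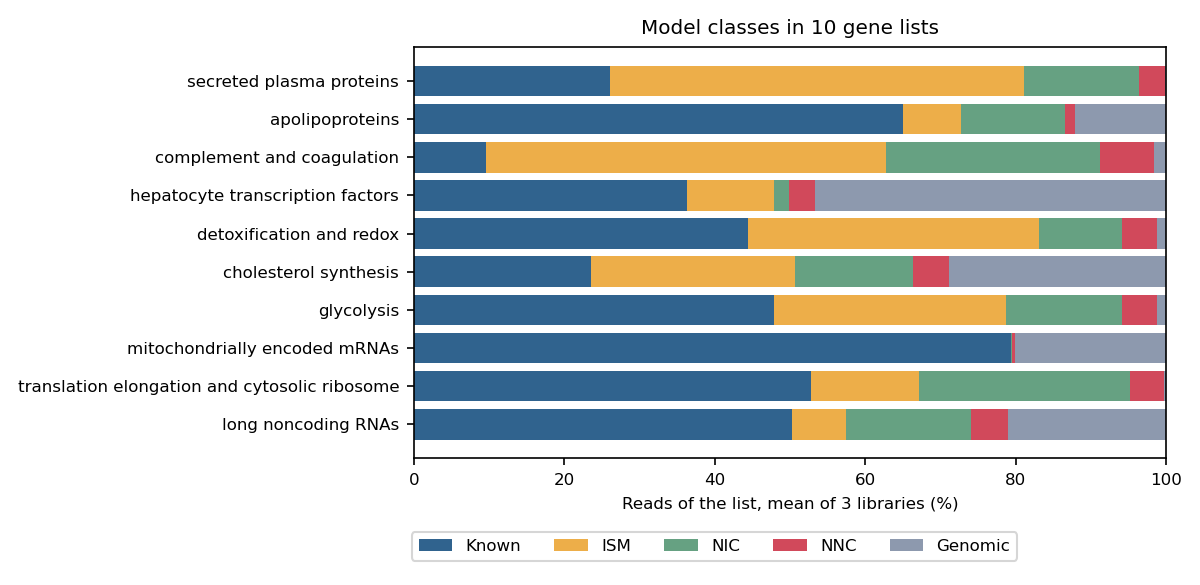
Percentage of the reads of each gene list (horizontal axis, mean of 3 libraries) in Known, ISM, NIC, NNC and Genomic models, for 10 lists (vertical axis). Known models held 9.63% in complement and coagulation genes and 79.4% in mitochondrially encoded mRNAs, and Genomic models 46.6% in hepatocyte transcription factors.

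Ribosomal protein and elongation factor genes held 18.97% ± 0.693 of reads, and NIC models held 28.1% ± 0.716 of theirs, against 17.1% over all reads. Of the 83 genes that passed, 65 were led by a Known, 16 by a NIC and 2 by an ISM model. Each of the 16 NIC leaders had exactly 1 exon fewer than the principal transcript. Among the 65 Known leaders 21 also had exactly 1 fewer and 40 had the same number, and 31 had introns that are the 3′ part of a longer annotated transcript.

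RPS2, a protein of the small subunit, was led by a NIC model of 6 exons where the principal transcript has 7, with 75.6%, 74.0% and 68.2% of its reads, and 0.155% ± 0.197 of its reads were in Known models. RPS15A showed the same with 4 exons of 5, at 88.0%, 85.2% and 84.7%, and RPS29 with 3 of 4, at 95.5%, 92.5% and 95.3%. In RPS19 the 5-exon NIC model, of 6 in the principal transcript, held 41.7%, 38.7% and 37.7%. The same gap of 1 exon held for RPL19, RPL37, RPS21, RPS27A and RPL7A. Their NIC leaders held 43.2% ± 0.979, 64.7% ± 1.52, 38.0% ± 0.816, 61.3% ± 7.10 and 49.9% ± 3.78 of reads (SD, n = 3 each). In RPS21 the principal transcript RPS21-201, of 6 exons, was close, at 37.0%, 37.2% and 35.3%. It led in replicate 2 with 226 reads against 225. The deposited table gives exon number and length but no splice positions for unannotated models, so how these models come to 1 exon fewer was not analysed here. Fewer exons did not always mean fewer bases. The NIC leaders of RPS2 and RPL7A have 1116 and 1528 bases, against 985 and 891 in the principal transcripts. Multigene families of this kind share sequence with pseudogenes, and the split of their reads is uncertain.

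Single genes stood at the ends of the class range, among genes with at least 300 reads. NNC models held 55.4% of the reads of BTF3, a factor of nascent polypeptide binding, whose leader with 6 exons, the principal number, held 60.4%, 51.6% and 47.8%. They held 37.6% in RPS20, 36.6% in TOMM7, a subunit of the mitochondrial import pore, and 36.0% in NDUFB9, a complex I subunit. Genomic models held all reads of JUND, an intronless AP-1 transcription factor, and 99.6% of those of IGF2, the fetal growth factor, where 1 Genomic model of 1493 bases held 73.2%, 70.3% and 66.2%. IGF2 had 2914, 3175 and 1121 CPM in replicates 1, 2 and 3. The entry AC132217.1 lies within the IGF2 span on the same strand and took 430 reads, 98.8% in ISM models. The split of reads between these entries was not tested. LYZ was led by a Genomic model with 63.5%, 62.3% and 68.0%. For Known models the 6 genes at the top were single-exon pseudogenes with every read in 1 model, such as RPL18AP3, with 1225 reads, and their reads cannot be separated with certainty from those of the parent genes.

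In most genes with a pair of well-used Known models, the intron chain of one model was a part of that of the other. In 32 genes 2 Known models each held at least 25% of the gene's reads in every library. In 28 of the 32 the introns of one were the 3′ part of those of the other, 27 of these differing by 1 exon or none, and in 10 the model with the shorter chain is typed as a retained intron. Only introns were compared, and a model with fewer exons can hold more bases, as SERPINA3-204 does with 2420 bases, against 1589 in SERPINA3-201. RPL37A-201, of 3 exons, held 54.9%, 56.3% and 56.4% and RPL37A-210, of 4, held 33.6%, 26.8% and 31.0%. In RPS18 the order of the models changed between libraries, with RPS18-230, of 6 exons, at 50.6%, 34.3% and 48.5% and RPS18-236, of 5, at 29.9%, 41.0% and 31.8%. SERPINA3, the antichymotrypsin gene, split its reads between SERPINA3-201, of 5 exons, at 65.0%, 57.7% and 63.3% and SERPINA3-204, of 3, at 33.2%, 41.1% and 35.9%. These are shares of the 1584 reads assigned to SERPINA3. The gene entry AL049839.2, on the same strand of chromosome 14, held 2029 reads. Whether reads of SERPINA3 were assigned to that entry was not tested.

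The other 4 genes, CCL20, SMIM26, HCFC1R1 and HDHD3, had pairs with different introns. With the minimum lowered to 10% of the gene's reads in every library, a value chosen after the data were seen, there were 244 pairs in 233 genes, of which 181 were 3′ parts and 57 in 57 genes had different introns. In 28 of those 57 every base that differs is coding sequence. Of 34 differing coding segments, 21 were a multiple of 3 bases long. Pairs with different introns differ in more than where a read ends. Some differ in a first or last exon, as the ALDOA models do in exon 1, and choice of start or end was not separated from splicing. The sequences that set apart 6 of the pairs are shown. NDUFB11, VKORC1, ISOC2 and ACP1 were chosen after their values were seen. Capitals mark the bases present in the named model and absent from its partner, and lower case marks 12 flanking bases of the same transcript on each side, as GENCODE release 29 gives them on GRCh38 (hg38), 5′ to 3′ on the transcript's strand. The coordinates are those of the bases in capitals.
CCL20-201, plus strand, chr2:227815454-227815456: gcgaatcagaagCAGcaagcaactttg
SMIM26-201, plus strand, chr20:18569236-18569238: cgaagtcgtcagTAGaccaaaaggatg
NDUFB11-201, minus strand, chrX:47142584-47142613: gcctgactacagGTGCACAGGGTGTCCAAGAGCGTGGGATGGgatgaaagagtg
VKORC1-205, minus strand, chr16:31093312-31093421: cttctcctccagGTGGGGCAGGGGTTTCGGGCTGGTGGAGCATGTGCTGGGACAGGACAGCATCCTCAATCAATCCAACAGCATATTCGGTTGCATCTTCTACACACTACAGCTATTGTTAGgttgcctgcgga
ISOC2-202, minus strand, chr19:55455636-55455845: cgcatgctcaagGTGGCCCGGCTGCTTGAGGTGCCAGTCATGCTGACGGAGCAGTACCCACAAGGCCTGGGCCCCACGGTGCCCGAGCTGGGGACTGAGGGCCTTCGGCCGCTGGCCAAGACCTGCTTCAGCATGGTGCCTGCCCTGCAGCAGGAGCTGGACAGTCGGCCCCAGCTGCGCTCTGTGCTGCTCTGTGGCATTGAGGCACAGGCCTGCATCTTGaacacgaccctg
ACP1-201, plus strand, chr2:272037-272150: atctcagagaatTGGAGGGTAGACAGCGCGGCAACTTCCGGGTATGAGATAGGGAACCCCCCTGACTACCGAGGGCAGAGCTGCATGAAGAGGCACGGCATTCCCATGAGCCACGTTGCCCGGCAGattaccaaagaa
ACP1-202, plus strand, chr2:272192-272305: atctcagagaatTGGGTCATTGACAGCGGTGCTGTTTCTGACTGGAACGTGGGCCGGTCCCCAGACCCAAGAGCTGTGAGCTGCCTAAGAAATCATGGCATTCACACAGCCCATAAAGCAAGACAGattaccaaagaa

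CCL20 codes for a chemokine, and its 2 models differ by the 3 bases at the start of exon 2 shown in capitals. CCL20-201, which holds them, took 42 of 78, 21 of 34 and 18 of 39 reads of the pair, a share of 53.9% ± 7.81, and CCL20-202 took the rest. SMIM26, which codes for a small integral membrane protein, likewise has models that differ by 3 bases at an exon edge. SMIM26-202, without them, took 70.9%, 67.7% and 68.5% of the pair, a spread of 1.65 points (SD, n = 3). The model without the 3 bases thus had more reads of the pair in each library in SMIM26, while in CCL20 it had more in replicate 3 alone. Whether these reads place a splice site to within 3 bases was not tested.

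NDUFB11 codes for a subunit of respiratory complex I. NDUFB11-202, which lacks the 30 bases of exon 2 shown, took 81.9%, 77.8% and 83.8% of the pair. VKORC1 codes for vitamin K epoxide reductase, the enzyme that recycles vitamin K for clotting factor synthesis in the liver. VKORC1-205, which holds the exon 2 of 110 bases shown, took 79.2%, 72.0% and 71.0% of the pair, and VKORC1-203 joins exons 1 and 3. This exon is not a multiple of 3 bases long. ISOC2-202, which holds exon 3 of 210 bases, took 81.5%, 72.2% and 77.8% of its pair with ISOC2-203. In these 3 genes the same model led its partner in every library.

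ACP1 codes for a low molecular weight phosphotyrosine phosphatase, and its models take 1 of 2 adjacent exons of 114 bases each as exon 3. The exons are alike at 62 of 114 positions, counted without gaps. ACP1-201 took 16 of 42, 18 of 28 and 24 of 34 reads of the pair, or 38.1%, 64.3% and 70.6%, so that the order of the exons in replicate 1 was opposite to that in the other two libraries. The counts are small, and no test of this pair was made. The PFDN5 pair, of a prefoldin subunit, and the HES6 pair, of a transcriptional repressor, were likewise chosen after their values were seen. PFDN5-214 took 76.8% ± 2.50 of its pair and HES6-205 took 58.7% ± 5.89 (SD, n = 3 each). HCFC1R1, whose models differ by a whole exon of 57 bases, had 33 reads in its pair and took 5 of 11, 4 of 8 and 8 of 14 reads in the model without it. HDHD3 had 32 reads in its pair, of which HDHD3-202 took 9 of 15, 4 of 7 and 5 of 10.

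**Figure D5:**
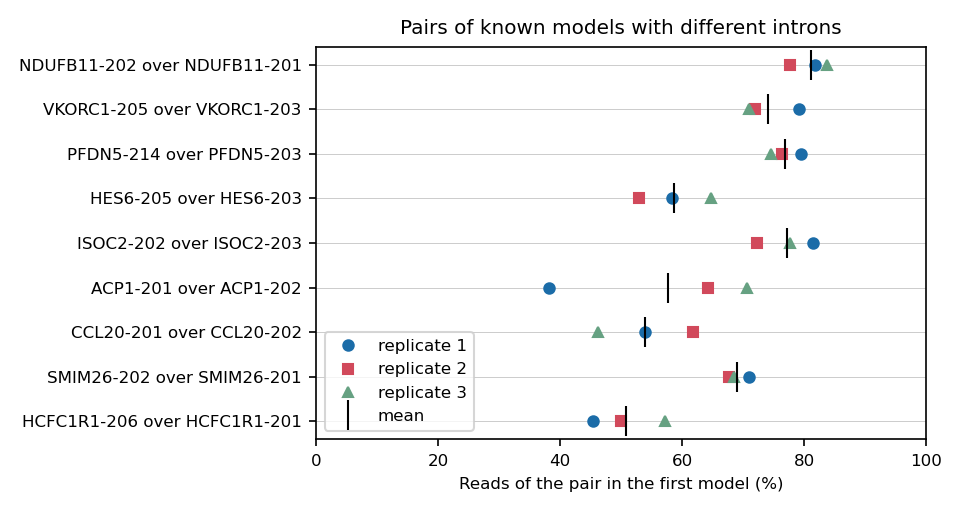
Percentage of the reads of a pair of Known models in the first-named model (horizontal axis) for 9 pairs with different introns (vertical axis); symbols are the 3 libraries and the bar is their mean. The ACP1 pair spans 38.1% to 70.6% over libraries, while the SMIM26 pair stays between 67.7% and 70.9%.

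To see where libraries differ by more than counting error, the leading share was tested in 1855 genes by a chi-square test of homogeneity over the 3 libraries with Benjamini-Hochberg adjustment. The test compares these libraries, not conditions. It called 108 genes, 5.82% of those tested, and 323 had an unadjusted p under 0.05. Of the 25 genes of most reads 15 were among the called. The test can call smaller differences in genes of more reads, so this count does not measure how much they vary. The leading share was highest in replicate 1 in 70 of the 108, in replicate 2 in 24 and in replicate 3 in 14, and it was lowest in replicate 3 in 58. Of the 76 called genes with a Known leader 62 were highest in replicate 1. These splits were not computed over all tested genes. Leaders were chosen on reads summed over libraries, of which replicate 1 gave the most. Without replicate 1, the deepest library, the count was 24 genes, without replicate 2 it was 77 and without replicate 3 it was 53. Fewer reads entered each of these tests.

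ALB-201 differed over libraries with an adjusted p of 1.23e-69 by the chi-square test with Benjamini-Hochberg adjustment, and AFP-202 with 4.49e-34. The SERPINA1 leader followed with 4.15e-33. TPT1, translationally controlled tumour protein, had 54.1%, 50.5% and 35.3% of its reads in TPT1-212. ACTG1, which codes for gamma actin, had a Genomic leader that held 27.3%, 3.89% and 36.9% of its reads, which are uncertain because actin pseudogenes are close in sequence. The replicate with the lowest share was thus the third for ALB, AFP, SERPINA1 and TPT1, and the second for ACTG1. Read depth, which also differed between libraries, was lowest in replicate 2, and its part in these differences was not tested.

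The leader differed between libraries in 1863 genes, of which 503 had at least 100 reads. Close models changed place in several of the most read of these. RPL23-206, of 5 exons, held 45.0%, 37.5% and 40.7% of RPL23 reads and a 4-exon NIC model 39.8%, 45.8% and 38.7%, so that the NIC model led in replicate 2 alone. RPS23-201, of 4 exons, held 44.0%, 37.4% and 38.9% and RPS23-203, of 3, held 38.8%, 43.1% and 38.5%. In RPS6, RPS6-203 of 5 exons held 13.5%, 16.6% and 15.1% and RPS6-204 of 6 exons 18.1%, 11.3% and 12.4%. In these 3 genes the model with more exons had its highest share in replicate 1 and its lowest in replicate 2. The leading share was called for RPL23 and not for RPS23 or RPS6. ALB, AFP and TF, genes of more reads whose leader also differed, did not share this order. ALB-201 and AFP-202 were lowest in replicate 3, and TF-201, of 17 exons, was highest there. With 2 libraries in place of 3, the leader was the same as with all in 2493 of 2865 genes without replicate 1, in 3244 of 3536 without replicate 2 and in 2870 of 3196 without replicate 3.

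The genes of at least 1000 reads with the lowest chi-square were taken to show the other end of the range, so their values are a description. The Genomic leader of SCD, the stearoyl-CoA desaturase, held 26.5%, 26.8% and 26.8% of its reads. MIF-201 of the cytokine gene MIF held 97.4%, 97.3% and 96.9%, over only 4 models. RPL27-206 held 59.8%, 58.3% and 59.2%, and the APOC1 leader varied by 1.27 points (SD, n = 3).

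Models that recurred in all 3 libraries were a small share of models and most of the reads. Of 164025 models with reads, 23788 (14.5%) had at least 1 read in each library, and they held 80.0% of reads. A single read was all that 104471 models (63.7%) had, 9.89% of reads. By class, 36.1% of Known models recurred, 19.9% of Genomic, 15.8% of ISM, 9.48% of NIC and 4.79% of NNC models. Known models that recurred held 95.3% of Known reads, while NNC models that recurred held 45.4% of NNC reads. At least 5 reads in each library were found for 5180 models, of which 1931 were Known, 1432 ISM, 833 Genomic, 757 NIC and 218 NNC.

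Among the passing genes the median gene had 20 models, of which 3 recurred in all libraries. The most recurrent models were in A2M with 149 of 1570, AFP with 142 of 658 and ALB with 139 of 857, then TF with 81, C3 with 68 and PGC with 56. All 6 are multi-exon genes of many reads. At the other end 96 genes had no model seen in every library.

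Among recurrent NIC and NNC models, most of those with the highest counts were of ribosomal protein genes. The NIC models of most reads with at least 5 in each library were those of RPS2, with 3663 reads, and RPS15A, with 3283, and the third was a 3-exon model of ALB, with 818, 452 and 1147 reads. For NNC models they were those of RPS20, with 836 reads, RPLP2, with 618, and RPL23A, with 595. The RPL23A model held 28.8%, 40.2% and 28.2% of that gene's reads. Unannotated antisense genes numbered 1417, of which 125 had reads in each library, and unannotated intergenic genes 1285, of which 117 did. Single-exon models held 83.9% of the antisense and 81.5% of the intergenic reads.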

How the data were processed

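Direct RNA was read in 3 HepG2 libraries. The submitters' processing notes name minimap2 and the build hg38, and the labels call the deposited table a TALON abundance table. Versions are not given in the sources used here. It holds read counts per transcript model, not normalized, per the file headers. Exon number and length are other values of the deposited table. All 35496 known models matched GENCODE release 29 by identifier, exon number and length. The shortest of these was 300 bases, and shorter known models were not analysed here.

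Counts were summed by annotated gene and divided by the library total (CPM). Leading models were taken in genes with at least 30 reads and 5 in each library. Leading shares were tested by Pearson's chi-square over libraries, two-sided, with every expected count at least 5 and Benjamini-Hochberg adjustment (SciPy 1.17.1), called at an adjusted p under 0.05, and the procedure was tested on simulated data. TMM (edgeR 4.0.16) and size factors (DESeq2 1.42.0, R 4.3.3) served as alternative scalings. Members and lists were chosen with earlier results of these data known. Named genes were, by rule, the most abundant of all and of each list, those with unannotated leaders, paired models, differing or stable leaders and extreme class shares, and the models of most reads; others are said to be chosen after their values were seen. A few genes taken by this rule are not reported here.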

Additional observations from a re-analysis of the deposited data

How the results depend on the processing

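Depth is a limit: at 248490 to 461497 reads, leaders of genes near the read minimum rest on few reads, and models of single reads are not a replicated result. Where 2 or more exons were required, Known, ISM, NIC, NNC and Genomic shares were 44.3%, 28.4%, 20.6%, 6.50% and 0.130%. Unannotated models kept only with at least 5 reads in 2 libraries gave 53.5%, 22.1%, 13.4%, 2.48% and 8.43%. The same weight for each gene gave 30.3% Known, 15.9% NIC, 6.89% NNC and 19.8% Genomic. Without the 25 most abundant genes ISM was 23.9%, NNC 5.88% and Genomic 14.5%. With at least 100 reads in all and 20 in each library, 1085 of 1562 genes kept 1 leader in each library, 983 leaders were Known, the median leading share was 35.0% and rho of length and Known share −0.54. At the main read minimum, rho was −0.42 with the length of the most read Known transcript, over 3808 genes. Among Known models alone, 1377 of 1510 genes had 1 leader in each library, the median leading share was 87.9% and 37 of 385 genes tested differed between libraries. With all ISM models of a gene as 1 competitor they led 1792 genes. Recurrent models numbered 12440 at 2 and 5180 at 5 reads in each library. At 10% in place of 25% the pairs of Known models were 244, of which 181 were 3′ parts. Leaving out 1 library gave 24 to 77 genes that differ between libraries, 647 to 852 Genomic leaders, a median leading share of 32.0% to 32.4% and 29036 to 36459 recurrent models. Causes of these shifts were not tested, except that fewer libraries, reads or models entered by construction. The other alternatives moved the remaining main results by less than 1.5 times or 1 SD. No paired analysis was possible because only 1 line was described and no second group shares its replicate numbers.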
